A study of Mus musculus with 8 samples.

Results

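The 10 genes described here are 6 matrix metalloproteinase genes (Mmp2, Mmp3, Mmp9, Mmp12, Mmp14 and Mmp19) and the 4 genes of their tissue inhibitors (Timp1, Timp2, Timp3 and Timp4), taken by symbol from a table of 34866 genes, in which all 10 were found. RNA came from the epididymal fat of male mice carrying a floxed gene for aromatase, Cyp19a1, the enzyme that turns androgens into oestrogens. The 4 control libraries are from Aromatase flox/flox mice and the 4 knockout libraries from aP2-Cre;Aromatase flox/flox mice, so both groups share the floxed alleles and the knockout group alone carries aP2-Cre. Strain, age and any pooling of animals are not given in the labels, and mice with aP2-Cre but no floxed allele were not analysed here. The aP2 (Fabp4) promoter that drives Cre is known to be active in adipocytes and also in some macrophages and endothelial cells. The study asked which genes respond to loss of adipose aromatase, with phosphorus handling in view.

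Matrix metalloproteinases are zinc-dependent proteases that are made as inactive precursors and cut proteins of the extracellular matrix, along with growth factors and other surface proteins. The tissue inhibitors (TIMPs) bind the active site and block it, and Timp3 also blocks proteases of the ADAM and ADAMTS families. In fat, matrix turnover accompanies the growth of adipocytes and the entry of new vessels and immune cells.

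Mmp12 and Mmp3 lie in a cluster of 10 Mmp genes on chromosome 9. Sequence before the start sites of 6 of these neighbours is shown because they share sequence words, while only Mmp12 and Mmp7 of the cluster had counts enough to be tested. The windows are the 100 bases before a RefSeq start site on GRCm38.p6, printed 5′ to 3′ on the gene's strand. For Mmp12 the window printed is that of the downstream of its 2 RefSeq start sites, and it lies inside the annotated gene. The other site, 7344397, is near the annotated start of the gene at 7344381. The window before that site overlaps an exon of Mmp12 itself and is not printed. That other Mmp12 window holds neither of the words searched. Capitals mark TGANTCA, which takes in the binding word of AP-1 (Fos and Jun dimers) and was searched on both strands, and TATAAA, the TATA box word, on the gene's strand.
Mmp13, chr9:7272414-7272513, plus strand: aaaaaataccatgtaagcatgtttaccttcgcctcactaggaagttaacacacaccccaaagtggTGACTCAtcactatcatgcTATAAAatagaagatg
Mmp12, chr9:7347274-7347373, plus strand: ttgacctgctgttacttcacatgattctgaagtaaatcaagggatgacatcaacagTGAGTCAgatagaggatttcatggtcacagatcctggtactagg
Mmp3, chr9:7445722-7445821, plus strand: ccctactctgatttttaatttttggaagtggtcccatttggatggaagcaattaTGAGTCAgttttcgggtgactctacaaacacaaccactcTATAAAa
Mmp1a, chr9:7464041-7464140, plus strand: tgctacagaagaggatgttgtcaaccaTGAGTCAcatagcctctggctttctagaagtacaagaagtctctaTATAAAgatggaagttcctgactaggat
Mmp10, chr9:7502242-7502341, plus strand: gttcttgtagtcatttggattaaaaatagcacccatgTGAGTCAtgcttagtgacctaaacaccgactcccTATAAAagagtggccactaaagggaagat
Mmp7, chr9:7691990-7692089, plus strand: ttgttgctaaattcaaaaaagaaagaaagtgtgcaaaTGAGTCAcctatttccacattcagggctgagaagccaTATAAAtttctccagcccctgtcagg
In the printed Mmp12 window TGAGTCA begins 44 bases before the downstream start site, and in the Mmp3 window 46 bases before the start site of that gene. Of the 10 cluster genes, 8 held TGANTCA in such a window and 7 held TATAAA as well, and these words did not overlap. The counts take in all windows, among them that of Mmp1b, which holds both words, overlaps an exon and is not printed. The 13 start sites of the 12 Mmp and Timp genes elsewhere in the genome that matched the RefSeq table held no TGANTCA within 100 bases. Over all 32851 windows of that length, 2.73% held TGANTCA, 5.56% held TATAAA on either strand and 0.234% held both. These shares count windows. The cluster counts are of genes with any matching window, with TATAAA on the gene's strand, so the measures differ. Of the 10 genes described here, 7 matched that table. The cluster genes are related by descent and are not independent cases, a match is a description of letters, and 3′-end counts do not show which start site was used.

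Depth ranged from 1538427 to 3053565 estimated counts per library, with control replicate 4 the smallest. Levels are given as CPM, the count scaled to a library total of 1000000 after trimmed-mean normalization. A library with 0 counts of a gene could have held up to 3 counts, which covers counting error only. By library totals before trimmed-mean normalization, 3 counts are 0.982 to 1.95 CPM depending on the library. Values are 3′-end counts not divided by gene length. Levels are compared between libraries, and shares or ratios that take in several genes are descriptions, compared between libraries in the same way. Cyp19a1 had 0 to 5.017 counts per library, so its deletion could not be checked. Mitochondrially encoded genes took 10.7% to 12.4% of the counts of a control and 8.7% to 10.1% of those of a knockout library. All 12 adipocyte markers were tested, and they summed to 32904 to 44761 CPM (controls) and 26929 to 39549.6 CPM (knockouts). Of 10 epididymis markers, 7 were at 0 in every library and the sum was at most 8.53 CPM.

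Of the 10 genes, 9 passed the low-count filter and 1, Mmp12, passed an adjusted p of 0.05, upward in the knockout libraries (edgeR quasi-likelihood test, n = 4 per group). Over all 12480 genes tested, 0.168% passed in either direction and 0.12% upward. The other 8 tested genes had log2 fold changes between -0.13 (Mmp2) and 0.3 (Timp1), 6 of them above 0, with a median of 0.11. With Mmp12 the median was 0.13, and over all genes tested it was 0.0. Mmp12 was also the 1 tested gene of the 9 whose genotypes did not overlap, a separation seen in 4.21% of all genes tested, or 2.48% with the knockouts higher.

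Mmp12 was also the single gene of the 10 past the threshold under each of 15 alternative settings. The share of all genes called was 0.168% with RLE or upper-quartile factors, 0.253% without a low-count filter, 0.144% with a filter on a total of 80 counts, 0.35% with DESeq2, 0.176% with limma-voom and 0.0481% with the replicate number as a block. When control replicates 1 to 4 were left out in turn it was 0.0937%, 0.0313%, 0.078% and 0.339%, and for knockout replicates 1 to 4 it was 0.0704%, 0.102%, 0.126% and 0.102%.

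**Figure D1:**
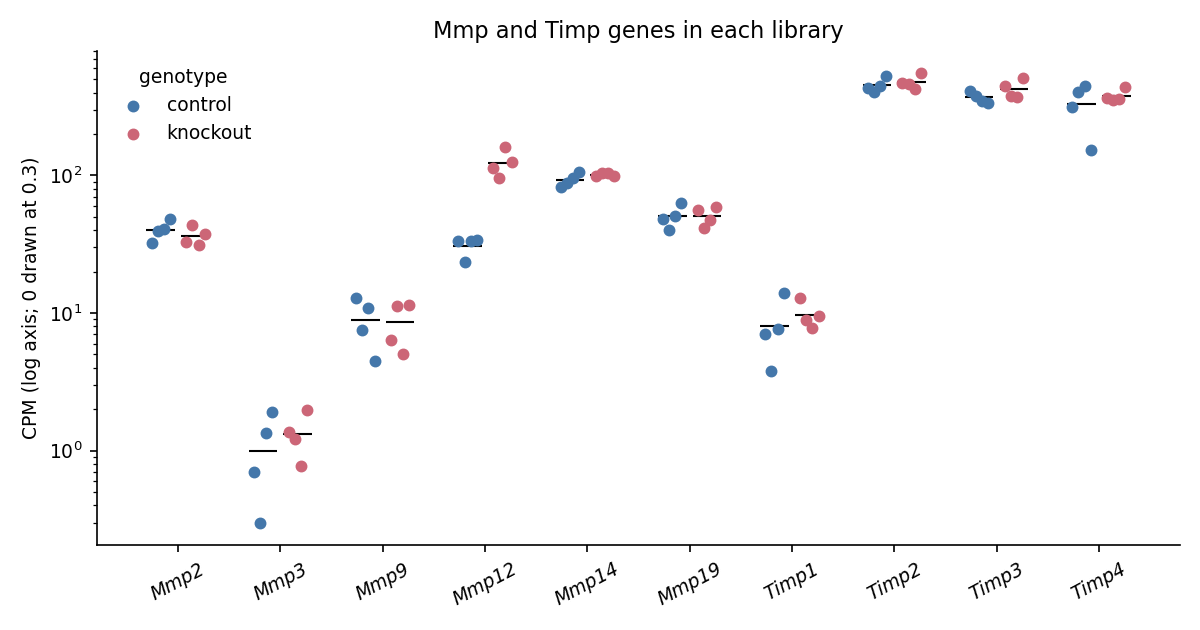
CPM on a log axis for the 10 Mmp and Timp genes, with 1 point per library (blue control, red knockout, replicates 1 to 4 from left to right) and a bar at each group mean. The 4 knockout points of Mmp12 lie between 96.0 and 159.8 CPM, above all control points, while the groups overlap for the other 9 genes.

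Mmp12 (chromosome 9, 7344381 to 7369499, plus strand) encodes macrophage metalloelastase, an elastin-cutting enzyme made mainly by macrophages. The controls, replicates 1 to 4, held 33.2, 23.4, 33.2 and 34.0 CPM, and the knockouts 113, 96.0, 159.8 and 126 CPM. Each knockout library stood above each control library, and knockout replicate 3 was the highest. The log2 fold change was 2.0 with a standard error of 0.17, or 4.01-fold higher with a 95% interval of 3.1 to 5.18 (edgeR adjusted p = 0.000147). In bulk tissue, a change in the number of cells that make a transcript and a change in the RNA per cell cannot be told apart.

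Of 18 listed macrophage markers 17 were tested and 2 passed upward in the knockouts, Lyz2 and Cd68, where 0.12% of all genes tested passed upward. In DESeq2 4 of the list passed and in limma-voom 2, where 0.35% and 0.176% of all genes did. An unadjusted edgeR p under 0.05 was found for 9 of the 17, all upward, beside 3.52% of all genes tested upward. The log2 fold change was above 0 for 15 of the 17, as for 49.7% of all genes tested, and 7 had groups without overlap, as had 4.21% of all. The lysozyme gene Lyz2 rose, at 379 ± 23.4 CPM against 682 ± 86.7 CPM (control against knockout; SD, n = 4; edgeR adjusted p = 0.00776), and so did the lysosomal membrane gene Cd68, at 36.3 ± 10.1 CPM against 80.6 ± 10.8 CPM (edgeR adjusted p = 0.0156). Lyz2 missed the threshold without control replicate 2 (edgeR adjusted p = 0.0551), and Cd68 without control replicate 2 or 3 or knockout replicate 1 or 2 (edgeR adjusted p from 0.0621 to 0.1). With the replicate number as a block neither passed (adjusted p = 0.0813 for Lyz2 and 0.0962 for Cd68). No marker of the list was at 0 in all libraries. The scavenger receptor gene Cd163, with the smallest p among markers that had a lower mean, was at 45.0 ± 11.4 CPM against 39.5 ± 18.7 CPM (SD, n = 4; edgeR adjusted p = 0.957). The summed level of the 18 markers was 1103 to 1282 CPM (controls) and 1571 to 2007 CPM (knockouts), a ratio of means of 1.43. Lyz2 made up 28.3% to 42.9% of that sum, and without it the ratio was 1.26, with 747 to 919 CPM for the controls and 925.0 to 1209 CPM for the knockouts.

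Within each library, Mmp12 was then set against those markers. Per 100 marker counts, control replicates 1 to 4 had 2.59, 1.94, 2.7 and 3.11 counts of Mmp12, against 6.96, 5.69, 10.2 and 6.28 for the knockouts. The ratio was 2.78-fold higher in the knockout group (log2 difference 1.48). Since Mmp12 was taken for this ratio with its difference known, and the marker sum differed less, the ratio is a description with no test. Against 7 of the markers it was 3.2-fold higher, and without Lyz2 3.16-fold higher. Neither cell number nor the cells that make Mmp12 were measured.

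**Figure D2:**
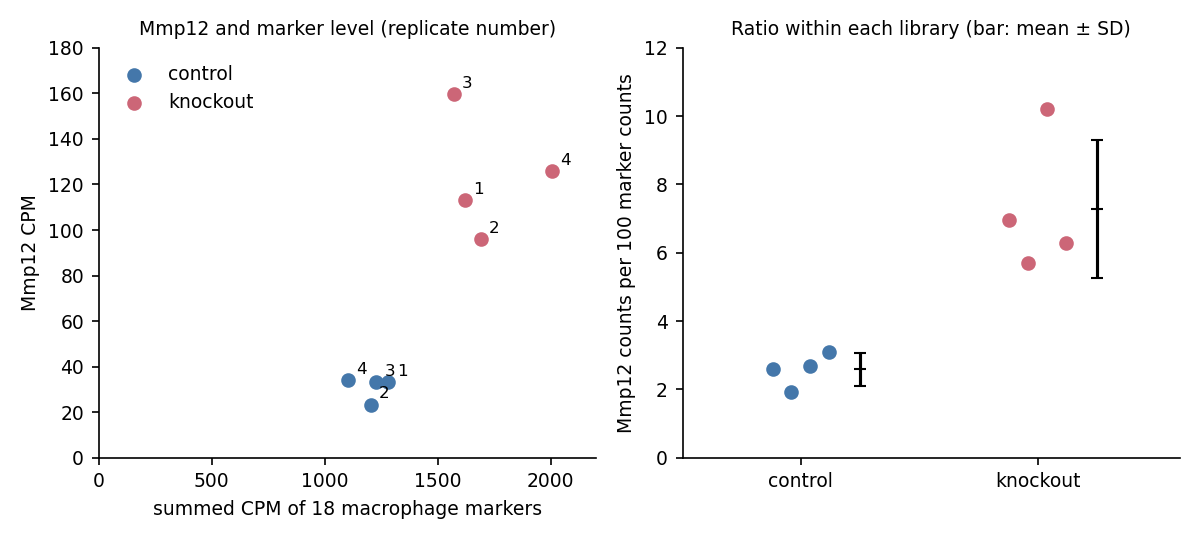
Left, Mmp12 CPM against the summed CPM of 18 macrophage markers, 1 point per library with its replicate number; right, Mmp12 counts per 100 marker counts in each library, with the mean and SD of each group. The knockout ratios, 5.69 to 10.2, lie above the control ratios, 1.94 to 3.11.

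The genes whose profile lay nearest to that of Mmp12 were Gpnmb, Lilr4b, Ctss, Lilrb4a and Trem2. Nearness was the root mean square difference of log2 CPM over the 8 libraries after each gene was centred on its mean, among 10008 tested genes with a mean of at least 10 CPM, and it was 0.41, 0.42, 0.45, 0.49 and 0.49 in that order. The measure takes in the genotype difference, so genes picked by it differ by genotype through the way they were picked. Their adjusted p-values below describe these genes and are no separate support. Gpnmb, a transmembrane glycoprotein gene, averaged 17.3 ± 4.73 CPM against 50.3 ± 14.8 CPM (SD, n = 4; edgeR adjusted p = 0.0152), and its highest library, as for Mmp12, was knockout replicate 3. Gpnmb missed the threshold without control replicate 1 or 2 or knockout replicate 1 (edgeR adjusted p from 0.0621 to 0.0786). Ctss, the gene of the lysosomal protease cathepsin S, averaged 67.6 ± 3.03 CPM against 156 ± 22.8 CPM (SD, n = 4; edgeR adjusted p = 0.000666). Trem2, a lipid-sensing receptor gene of macrophages, averaged 8.08 ± 2.21 CPM against 21.4 ± 4.21 CPM (SD, n = 4) and missed the threshold in edgeR (adjusted p = 0.0657), though not in DESeq2 (adjusted p = 0.00649). Lilr4b and Lilrb4a (edgeR adjusted p = 0.00298 and 0.038) are closely related neighbours, so the division of reads between them is uncertain. Lilrb4a missed the threshold in 6 of the 8 fits that left out 1 library.

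Among the 10 genes of the chromosome 9 cluster, 2 passed the low-count filter, Mmp12 and Mmp7. The other 8, Mmp3 among them, had at most 6 counts and 1.97 CPM in any library, and Mmp1a and Mmp1b were at 0 in all 8 libraries. Mmp1b lies on the opposite strand and overlaps the end of Mmp12. Of the 7350 words of 31 bases in Mmp12 transcripts, 130 occur in Mmp1b as well, the most shared with any 1 gene. In all, 1863 genes shared words with Mmp12, and what this does to its counts was not tested. Neighbours of Mmp12 other than Mmp7 were thus near the floor of 3 counts whatever the genotype.

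**Figure D3:**
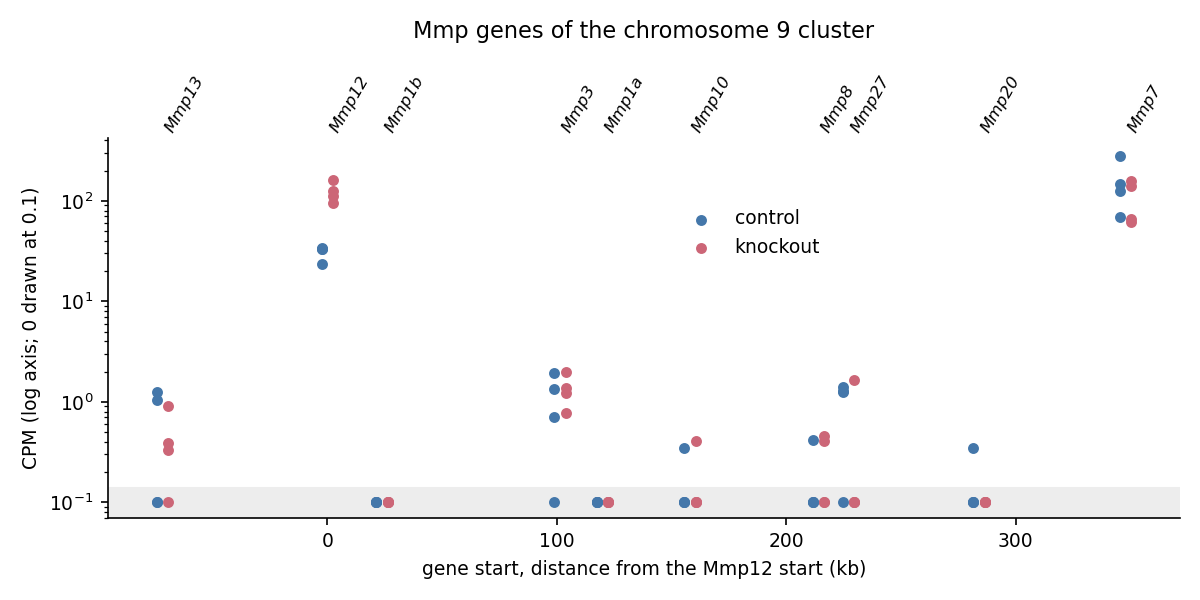
CPM on a log axis of the 10 Mmp genes of the chromosome 9 cluster against the distance of each gene's start from the Mmp12 start, in kb; points are libraries (blue control, red knockout) and values of 0 are drawn in the grey band. Mmp12 separates by genotype, Mmp7 is detected in every library with overlapping groups, and the other 8 genes stay at or under 1.97 CPM.

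The genes of AP-1 factors and other regulators of Mmp genes formed a list of 17, of which 16 were tested. None passed in edgeR, DESeq2 or limma-voom, and 3 had an unadjusted p under 0.05 (Spi1, Nfkb1 and Jun, all above 0). Over all genes tested 6.39% did so in either direction and 3.52% upward. The median log2 fold change was 0.32, with 12 of 16 above 0, against 0.0 and 49.7% over all genes tested. Spi1, which encodes PU.1, a lineage factor of macrophages, averaged 18.2 ± 2.95 CPM against 31.9 ± 8.23 CPM (SD, n = 4; edgeR adjusted p = 0.333). Jun was at 142, 145, 97.8 and 122 CPM across the controls, against 157, 188, 163 and 156 CPM for the knockouts (edgeR adjusted p = 0.592). The groups of Jun, Spi1 and Nfkb1 did not overlap, 3 of the 16 tested, a separation seen in 4.21% of all genes tested. Those of the other tested genes of the list overlapped, the other tested AP-1 genes among them. Rela, an NF-kB subunit gene, averaged 50.0 ± 7.5 CPM against 45.0 ± 3.33 CPM (SD, n = 4; edgeR adjusted p = 0.939).

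The gelatinases Mmp2 and Mmp9 cut denatured collagen and basement membrane. Mmp2 (chromosome 8, 92827291 to 92853420, plus strand), made chiefly by stromal cells, had control levels of 32.5, 39.3, 40.8 and 48.1 CPM and knockout levels of 33.0, 44.0, 31.4 and 37.4 CPM. The groups overlapped (log2 fold change -0.13, 95% interval -0.48 to 0.23, edgeR adjusted p = 0.946). Mmp9 (chromosome 2, 164940780 to 164955850, plus strand), typical of neutrophils and other myeloid cells, had control levels of 12.9, 7.53, 10.8 and 4.49 CPM and knockout levels of 6.41, 11.3, 5.04 and 11.5 CPM. It rested on 7 to 37 counts per library, and its interval was wide (log2 fold change -0.08, 95% interval -0.9 to 0.73, edgeR adjusted p = 0.987). The neutrophil markers summed to 35.9 to 40.2 CPM (controls) and 34.7 to 50.4 CPM (knockouts), and 3 of the 11 (Ly6g, Ltf and Ngp) were at 0 in every library. Only 2 of the 11 were tested. Cxcr2 alone, at 24.7 to 29.0 CPM in controls and 19.0 to 38.0 CPM in knockouts, made up most of that sum in each library.

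Mmp14 (chromosome 14, 54431612 to 54445364, plus strand) encodes MT1-MMP, a membrane-anchored collagenase that activates the Mmp2 precursor together with Timp2. Control levels were 82.1, 88.3, 95.5 and 106 CPM and knockout levels 98.9, 105, 104 and 98.7 CPM. The highest library was control replicate 4, so the groups overlapped (log2 fold change 0.13, 95% interval -0.11 to 0.38, edgeR adjusted p = 0.922). Mmp19 (chromosome 10, 128790910 to 128800824, plus strand), a secreted enzyme that cuts basement membrane proteins, had control levels of 48.6, 40.2, 50.7 and 62.8 CPM and knockout levels of 55.9, 41.6, 47.7 and 59.0 CPM. The genotypes covered nearly the same range (log2 fold change 0.03, 95% interval -0.32 to 0.37, edgeR adjusted p = 0.992). Mmp19 overlaps Tmem198b on the opposite strand and shares 759 of its 3508 words of 31 bases with it, and since the use of strand in counting is not given in the sources used here, reads of the pair cannot be told apart there. Tmem198b itself had 2.35 to 17.51 counts per library.

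Mmp3 (chromosome 9, 7445822 to 7455975, plus strand), stromelysin 1, had 2, 0, 3 and 3 counts in the controls and 3, 3, 2 and 6 counts in the knockouts. These values lie around the floor of 3 counts, the low-count filter removed the gene, and a difference was not detectable at this depth.

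Timp1 (chromosome X, 20870166 to 20874735, plus strand) is the inducible inhibitor of the family and also acts as a growth factor. Control levels were 6.99, 3.77, 7.62 and 14.1 CPM and knockout levels 12.8, 8.88, 7.76 and 9.51 CPM, resting on 9 to 29 counts each. Both the lowest and the highest library were controls (log2 fold change 0.3, 95% interval -0.51 to 1.11, edgeR adjusted p = 0.946). Timp2 (chromosome 11, 118301069 to 118355740, minus strand), a broadly expressed inhibitor, had control levels of 429, 403, 444 and 529.5 CPM and knockout levels of 473, 463, 425 and 554 CPM. With 826 to 1690 counts per library its interval was narrower (log2 fold change 0.09, 95% interval -0.18 to 0.35, edgeR adjusted p = 0.949).

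Timp3 (chromosome 10, 86300372 to 86349506, plus strand) encodes the inhibitor that stays bound to the matrix. Control levels were 411, 379, 348 and 339 CPM and knockout levels 451, 377, 374 and 509 CPM. Knockout replicates 1 and 4 exceeded all controls and the other 2 did not (log2 fold change 0.21, 95% interval -0.06 to 0.48, edgeR adjusted p = 0.877). Timp4 (chromosome 6, 115241892 to 115252205, minus strand), an inhibitor typical of fat, heart and brain, had control levels of 317, 405, 449 and 152 CPM and knockout levels of 364, 356, 358 and 438 CPM. Control replicate 4 was below all other libraries (log2 fold change 0.19, 95% interval -0.46 to 0.84, edgeR adjusted p = 0.951), and without it the log2 fold change was -0.04 (edgeR adjusted p = 0.978). In that library the 10 endothelial markers summed to 574 CPM, against 913 to 1087 CPM in the other controls and 819.5 to 1015 CPM in the knockouts. Low sums there were not particular to endothelium. Control replicate 4 was also the lowest library for the summed macrophage markers (1103 CPM) and the listed matrix genes (9684 CPM). It was not the lowest for the adipocyte markers (32904 CPM) or the fibroblast and stromal markers (6371 CPM). The part of cell makeup in the Timp4 value was not tested.

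Timp1, Timp3 and Timp4 each lie inside a synapsin gene on the opposite strand, Syn1, Syn3 and Syn2 in that order. Timp3 shares 1707 of its 8071 words of 31 bases with Syn3, and Timp4 shares 61 of 5849 with Syn2. In all, 1290 genes shared words with Timp3 and 2717 with Timp4. The host genes had few counts beside the inhibitors, 0 to 7 for Syn1, 1.008 to 10.83 for Syn3 and 15 to 39 for Syn2 per library. Without a stated use of strand, reads of the Timp3 and Timp4 pairs cannot be told apart where their exons overlap.

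**Figure D4:**
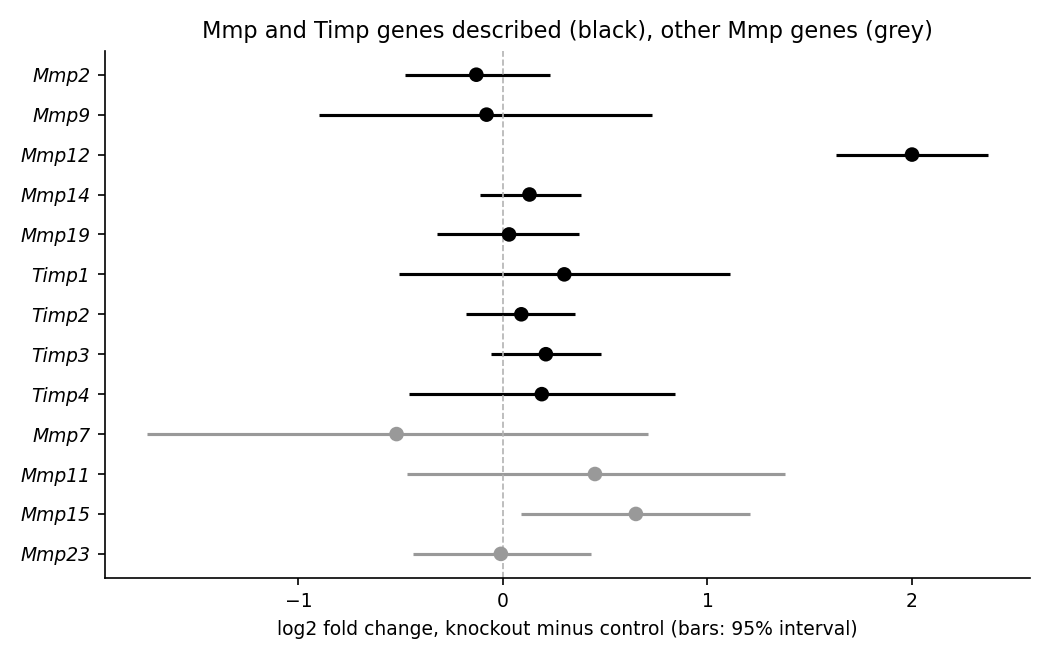
Log2 fold change, knockout minus control, with its 95% interval for the 9 tested Mmp and Timp genes (black) and the 4 other Mmp genes that were tested (grey). The interval of Mmp12 runs from 1.63 to 2.37, and the intervals of the other 8 genes in black include 0.

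Summed over the 6 metalloproteinase genes, the level was 210.0, 199, 232 and 257 CPM among controls and 308, 299, 349 and 335 CPM among knockouts. Without Mmp12 the sum was 194 ± 22.5 against 199 ± 8.58 CPM (SD, n = 4), and the groups overlapped. Mmp12 made up 13.8% ± 1.7 of the summed level of these 6 genes in controls and 38.0% ± 5.72 in knockouts (SD, n = 4). The 4 inhibitors summed to 1159.6 ± 90.5 against 1295 ± 155 CPM (SD, n = 4). Per 100 CPM of inhibitors there were 18, 16.7, 18.6 and 24.8 CPM of metalloproteinases among controls and 23.7, 24.8, 30.0 and 22.1 CPM among knockouts, and control replicate 4 reached into the knockout range. The metalloproteinase sums, the share of Mmp12 and the ratio cover the 6 genes only. The 17 other Mmp genes, left out of them, summed to 135 to 329 CPM (controls) and 122 to 221 CPM (knockouts). Mmp7 among these averaged 155 ± 87.8 CPM against 107 ± 50.4 CPM (SD, n = 4), so a sum over all Mmp genes would differ. All the sums given are descriptions, and no test was applied to them.

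The table held 17 further Mmp genes, of which 4 passed the low-count filter and none passed the threshold in edgeR, DESeq2 or limma-voom. Mmp15, which encodes MT2-MMP, a membrane-anchored relative of Mmp14, had control levels of 10.1, 7.95, 9.42 and 6.41 CPM and knockout levels of 13.7, 12.9, 14.7 and 12.8 CPM. Its groups did not overlap and its unadjusted p was 0.0252, but it did not pass (log2 fold change 0.65, 95% interval 0.09 to 1.21, edgeR adjusted p = 0.695). It was the 1 of the 4 tested genes on either count. Over all genes tested, 4.21% had groups without overlap and 3.52% had an unadjusted p under 0.05 upward. Matrilysin, Mmp7, an enzyme known mainly from epithelia, varied widely within each genotype, with control levels of 69.2, 147, 126 and 277 CPM and knockout levels of 66.4, 142, 158 and 61.0 CPM (edgeR adjusted p = 0.939). It shares 94 of its 1038 words of 31 bases with the antisense gene AV064505. Mmp11 was at 1.28 CPM in control replicate 4 and at 6.69 to 14.2 CPM in the other libraries (edgeR adjusted p = 0.934). Mmp23 had a log2 fold change of -0.01 (edgeR adjusted p = 0.998). The other 13 were at 6.98 CPM or less in every library.

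Proteins that activate or clear metalloproteinases formed a list of 23 genes, of which 19 were tested. None passed in edgeR, DESeq2 or limma-voom, and 4 had an unadjusted p under 0.05, 2 in each direction, where 3.52% of all genes tested did so upward and 2.87% downward. The median log2 fold change was 0.04. Cd44, a hyaluronan receptor that can hold Mmp9 at the cell surface, averaged 34.3 ± 8.36 CPM against 51.8 ± 2.99 CPM (SD, n = 4; edgeR adjusted p = 0.432). Klkb1, plasma prekallikrein, averaged 26.9 ± 11.9 CPM against 15.4 ± 3.64 CPM (SD, n = 4; edgeR adjusted p = 0.669).

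All 17 listed ADAM and ADAMTS genes, relatives of the metalloproteinases, were tested, and none passed in edgeR or limma-voom. Adam8, a protease gene of myeloid cells, had the smallest p, with control levels of 11.5, 5.44, 4.04 and 8.98 CPM and knockout levels of 26.6, 25.8, 20.2 and 18.7 CPM, without overlap. The log2 fold change was 1.59 with a standard error of 0.31, and the adjusted p was 0.0657 in edgeR and 0.00368 in DESeq2. Adam8 was the 1 gene of the 17 without overlap, as were 4.21% of all genes tested. It was also the 1 of the list past the threshold in DESeq2, where 0.35% of all genes passed. Without control replicate 1 the edgeR adjusted p was 0.043. Adam19 averaged 11.7 ± 3.48 CPM against 8.9 ± 2.2 CPM (SD, n = 4; edgeR adjusted p = 0.918). The median of the list was 0.15.

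Of 32 matrix genes whose products metalloproteinases can cut, all were tested and none passed in edgeR, DESeq2 or limma-voom. The median log2 fold change was 0.16, 29 were above 0, and 3 had an unadjusted p under 0.05 (Fbn1, Vcan and Fn1, all above 0). Over all genes tested 49.7% were above 0, and an unadjusted p under 0.05 was found for 6.39% in either direction and 3.52% upward. Fibrillin 1, Fbn1, a scaffold of elastic fibres, had control levels of 102, 90.8, 51.1 and 52.6 CPM and knockout levels of 141, 107, 114 and 147 CPM (edgeR adjusted p = 0.482). Its groups did not overlap, as was found for 2 of the 32 matrix genes and 4.21% of all genes tested. Elastin, Eln, a substrate of Mmp12, averaged 88.2 ± 25.9 CPM against 115 ± 32 CPM (SD, n = 4; edgeR adjusted p = 0.899). Vitronectin, Vtn, averaged 16.6 ± 5.85 CPM against 14.3 ± 2.45 CPM (SD, n = 4; edgeR adjusted p = 0.941). The fibroblast and stromal markers, from cells that make much of the matrix, summed to 6273 to 6620.5 CPM (controls) and 4636 to 6267 CPM (knockouts). Gsn, the gelsolin gene, made up 75.3% to 87.4% of that sum, and the other 11 markers summed to 834 to 1165 CPM and 860.4 to 1168 CPM, with overlap. Of the 12, 8 were above 0 and the median log2 fold change was 0.02.

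Of 22 listed signals and receptors that can induce Mmp genes, 13 were tested and none passed in edgeR, DESeq2 or limma-voom. Of these 13, 4 were above 0 and the median log2 fold change was -0.02. Ccl2, a monocyte-attracting chemokine, averaged 11.1 ± 5.2 CPM against 19.8 ± 4.1 CPM (SD, n = 4; edgeR adjusted p = 0.689), and the TNF receptor gene Tnfrsf1a 116 ± 11.2 CPM against 103 ± 5.32 CPM (edgeR adjusted p = 0.907). Csf2 was at 0 in all 8 libraries. Over the 6 lists together, 101 of 128 genes were tested, 0 passed in edgeR, 1 (Adam8) in DESeq2 and 0 in limma-voom. The shares of all genes that passed were 0.168%, 0.35% and 0.176% in that order. An unadjusted p under 0.05 was found for 13 of the 101, 11 of them above 0, beside 6.39% of all genes tested in either direction, 3.52% upward and 2.87% downward.

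In the other cell type lists no gene passed in edgeR. Of the 12 adipocyte markers, 2 had a log2 fold change above 0 and 10 below, with a median of -0.1. Over all genes tested, 49.7% were above 0. The genes with the smallest p in each direction were, for adipocytes, Lep and Retn (log2 fold changes 0.29 and -0.65, edgeR adjusted p = 0.961 and 0.0731), and Retn, the resistin gene, passed in DESeq2 and limma-voom. For endothelium they were Egfl7 and Vwf (0.28 and -0.69 on the log2 scale), for pericytes and smooth muscle Notch3 and Tagln (0.69 and -0.57), for stroma Col14a1 and Gsn (0.25 and -0.28) and for mesothelium Gpm6a and Wt1 (0.39 and -0.35). Cxcr2, a neutrophil receptor gene, was at 0.17 and the T cell gene Cd3d at -0.49 on that scale, and the edgeR adjusted p of the genes other than Retn ran from 0.45 to 0.961. Pericyte and smooth muscle markers summed to 587 to 694 CPM (controls) and 572 to 753 CPM (knockouts), mesothelial markers to 82.8 to 171 and 102 to 186 CPM, and lymphocyte markers to 19.7 to 27.8 and 15.1 to 42.0 CPM.

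**Figure D5:**
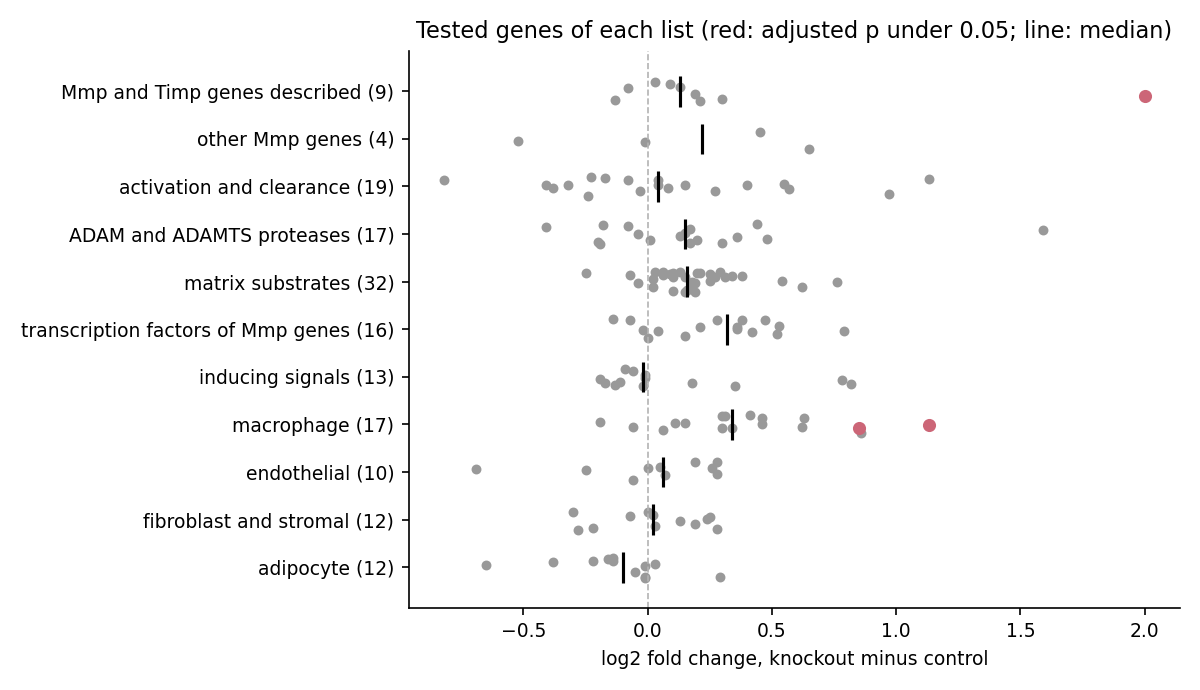
Log2 fold change, knockout minus control, of each tested gene by list (number tested in brackets), with the list's median as a line and genes past an adjusted p of 0.05 in red. Red points are Mmp12 among the Mmp and Timp genes and Lyz2 and Cd68 among macrophage markers, and the medians of the lists drawn lie between -0.10 (adipocyte) and 0.34 (macrophage).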

How the data were processed

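RNA from epididymal fat (8 libraries) was sequenced by BRB-seq, a 3′-end method primed with oligo-dT, with 10 cycles of PCR and 51 bases of insert read, per the labels' protocols. The authors deposited estimated counts per gene, not normalized. Salmon and GRCm38 are named in the submitters' processing notes, while the annotation and the use of strand and of molecular identifiers are not given in the sources used here. Identifiers were paired with symbols without their version (34582 of 34866 matched), and positions are from GENCODE M21 (GRCm38). Estimated counts were rounded for the tests.

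Genotypes were compared with edgeR 4.0.16 (R 4.3.3; robust quasi-likelihood, TMM factors, filterByExpr, Benjamini-Hochberg over 12480 genes, threshold 0.05), tested on simulated counts. Log2 CPM used a prior count of 2. A permutation test planned for the ratio of Mmp12 to macrophage markers is not reported, because Mmp12 was chosen with its difference known. The genes named are the 10, Cyp19a1, the genes past the threshold in each list and otherwise the smallest p in each direction, and the 5 profiles nearest Mmp12. Jun, Nfkb1, Vcan, Fn1, Eln, Mmp11, Mmp23, genes at 0 and genes overlapping a Timp or Mmp gene were added after their values were seen. The genes and lists were chosen with earlier results of these data known. Each setting was changed alone: RLE or upper-quartile scaling, dropping the low-count filter, requiring 80 counts over all libraries, DESeq2 1.42.0, limma 3.58.1 (voom with quality weights), the replicate number as a block, and leaving out each library. No pair of replicates was a duplicate (chi-square per degree of freedom 4.48 to 9.4). The labels do not say that libraries come from separate animals, so p-values measure the spread between these samples.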

Additional observations from a re-analysis of the deposited data

Results flagged for a closer look

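Among 58 sets of 4 libraries, 2 had a highest or lowest library whose gap to its nearest neighbour, as a share of the range, was above Dixon's 95% critical value, and chance alone gives about 1 in 20. For Mmp12 it was control replicate 2, with 23.4 CPM where the remaining controls had 33.2 to 34.0 CPM. Without that library the Mmp12 log2 fold change was 1.89 (edgeR adjusted p = 0.00168). For Timp4 it was knockout replicate 4, with 438 CPM where the remaining knockouts had 356 to 364 CPM. Without that library the Timp4 log2 fold change was 0.11 (edgeR adjusted p = 0.987).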

How the results depend on the processing

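Mmp12 passed under all 15 alternatives, with log2 fold changes from 1.85 to 2.11 and adjusted p from 5.5e-20 to 0.00273; the lowest and highest fold changes came when 1 library was left out. It remained the single gene of the 10 past the threshold in each. With 1 library left out, the log2 fold change changed sign for Mmp9 (-0.28 to 0.15), Mmp19 (-0.07 to 0.14) and Timp4 (-0.04 to 0.37), none of which had passed; no other tested gene of the 10 changed sign. Of the other genes named, Lep reversed with limma-voom (-0.04) and ranged from -0.21 to 0.55 with 1 library left out.

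The number of genes past the threshold went from 21 to 58 without a low-count filter, 53 with DESeq2 and 6 with the replicate block, and to between 4 (without control replicate 2) and 43 (without control replicate 4) when 1 library was left out. With the replicate block Mmp12 stayed past the threshold (log2 fold change 1.99), while Lyz2 (edgeR adjusted p = 0.0813), Cd68 (0.0962) and Lilrb4a (0.0962) did not. Deviations of same-numbered libraries correlated at 0.25, -0.062, -0.0058 and -0.24 for replicates 1 to 4. Only for replicate 1 was the library of the same number the best match. The labels do not say whether same-numbered libraries share more than a number, and these correlations cannot decide it. Of the macrophage markers, Lyz2 also missed the threshold without control replicate 2 (0.0551), and Cd68 in 4 of the 8 fits that left out 1 library (adjusted p up to 0.1). The number of pathway genes past the threshold went from 0 to 1 (Adam8) without a filter and with DESeq2, and ranged from 0 to 1 with 1 library left out.

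The log2 difference of Mmp12 per macrophage marker count lay between 1.30 and 1.58 with 1 library left out (1.48 with all). Mmp3 gave no value in fits with a low-count filter. Depth limits Mmp3, Mmp9 and Timp1 most, at 0 to 37 counts per library. The cause of these changes was not tested.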
